A study of Sus scrofa domesticus with 6 samples.

Results

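Signalling by bone morphogenetic proteins (BMPs), growth and differentiation factors (GDFs), activins and transforming growth factor beta (TGF-beta) was followed in the mandibular condyle of miniature pig embryos. The condyle is the growing cartilage-covered end of the lower jaw. The genes were taken by name from the deposited gene table and cover ligands, receptors, co-receptors, secreted antagonists, latency proteins, SMADs and the ID target genes. The names matched 58 of 25322 rows, each name having 1 row. BMP2, BMP8A, BMP8B, GDF1, GDF6, GDF15, INHBB, NOG, FSTL1, FSTL3, LTBP4 and ID3 were not analysed here.

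RNA was sequenced from 3 libraries of embryos 85 days old and 3 libraries of embryos 45 days old, after removal of ribosomal RNA. The question of the series is how the condyle ossifies between these ages. The labels describe all 6 libraries alike, as cartilage with chondrocytes and osteocytes, and give no treatment that differs between ages. No label says whether each library is 1 animal, so every p-value rests on the spread among these 6 libraries, which may be technical. Fold changes are day 85 over day 45. Levels in a library are counts scaled to library size with TMM factors (CPM), and levels of different genes are set side by side only as deposited FPKM, which divides by a length per gene.

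Ligands of this family are secreted as dimers and bind a pair of type II and a pair of type I serine/threonine kinase receptors. TGF-beta and activin receptors phosphorylate SMAD2 and SMAD3, BMP receptors phosphorylate SMAD1, SMAD5 and SMAD9, and both groups enter the nucleus with SMAD4. TGF-beta is secreted in a latent complex tethered to the matrix by LTBP proteins, whereas BMPs are held back by secreted antagonists such as chordin. In growing cartilage BMP signalling is known to drive chondrocyte differentiation, and TGF-beta signalling is known to restrain hypertrophy.

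Of the 58 genes, 51 had enough counts to be tested. In edgeR's quasi-likelihood test, adjusted after Benjamini and Hochberg over all 15022 genes tested, 2 rose at day 85, the type II receptor TGFBR2 and the co-receptor ENG, and 0 fell. Over all genes 3.90% were called higher and 2.66% lower, so 2 of 51, or 3.92%, is below the 6.56% called in either direction and is not a result about the family. Before adjustment, 10 members with a p under 0.05 were higher and 9 were lower, where all genes gave 15.8% and 13.3%, or 29.1% together. DESeq2 called 9 higher and 10 lower, 37.3% of the 51, where it called 22.7% of all genes. The libraries of the ages did not overlap in 10 genes that were higher and 11 that were lower at day 85, or 19.6% and 21.6%, against 17.4% and 17.6% of all genes tested. The median log2 fold change was -0.01 in the family and 0.02 over all genes.

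By role, the signs were as follows. Of 14 ligands tested, 12 were negative on the log2 scale (median -0.74), and 7 did not overlap between ages in the downward direction. Of 13 receptors and co-receptors, 8 were positive (median 0.06), of which TGFBR1 turned negative with upper-quartile factors (-0.02), library totals (-0.04) or no filter (-0.01), and 5 did not overlap in the upward direction. Over all genes 7240 of 15022 were negative and 7782 positive, while 2651 did not overlap downward and 2611 upward. With a library left out, the sign could turn for the ligands TGFB1, TGFB2 and BMP3. The same held for the receptors TGFBR1, ACVR1, ACVR1B and ACVR2A. These groupings are descriptions and were not tested.

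**Figure D1:**
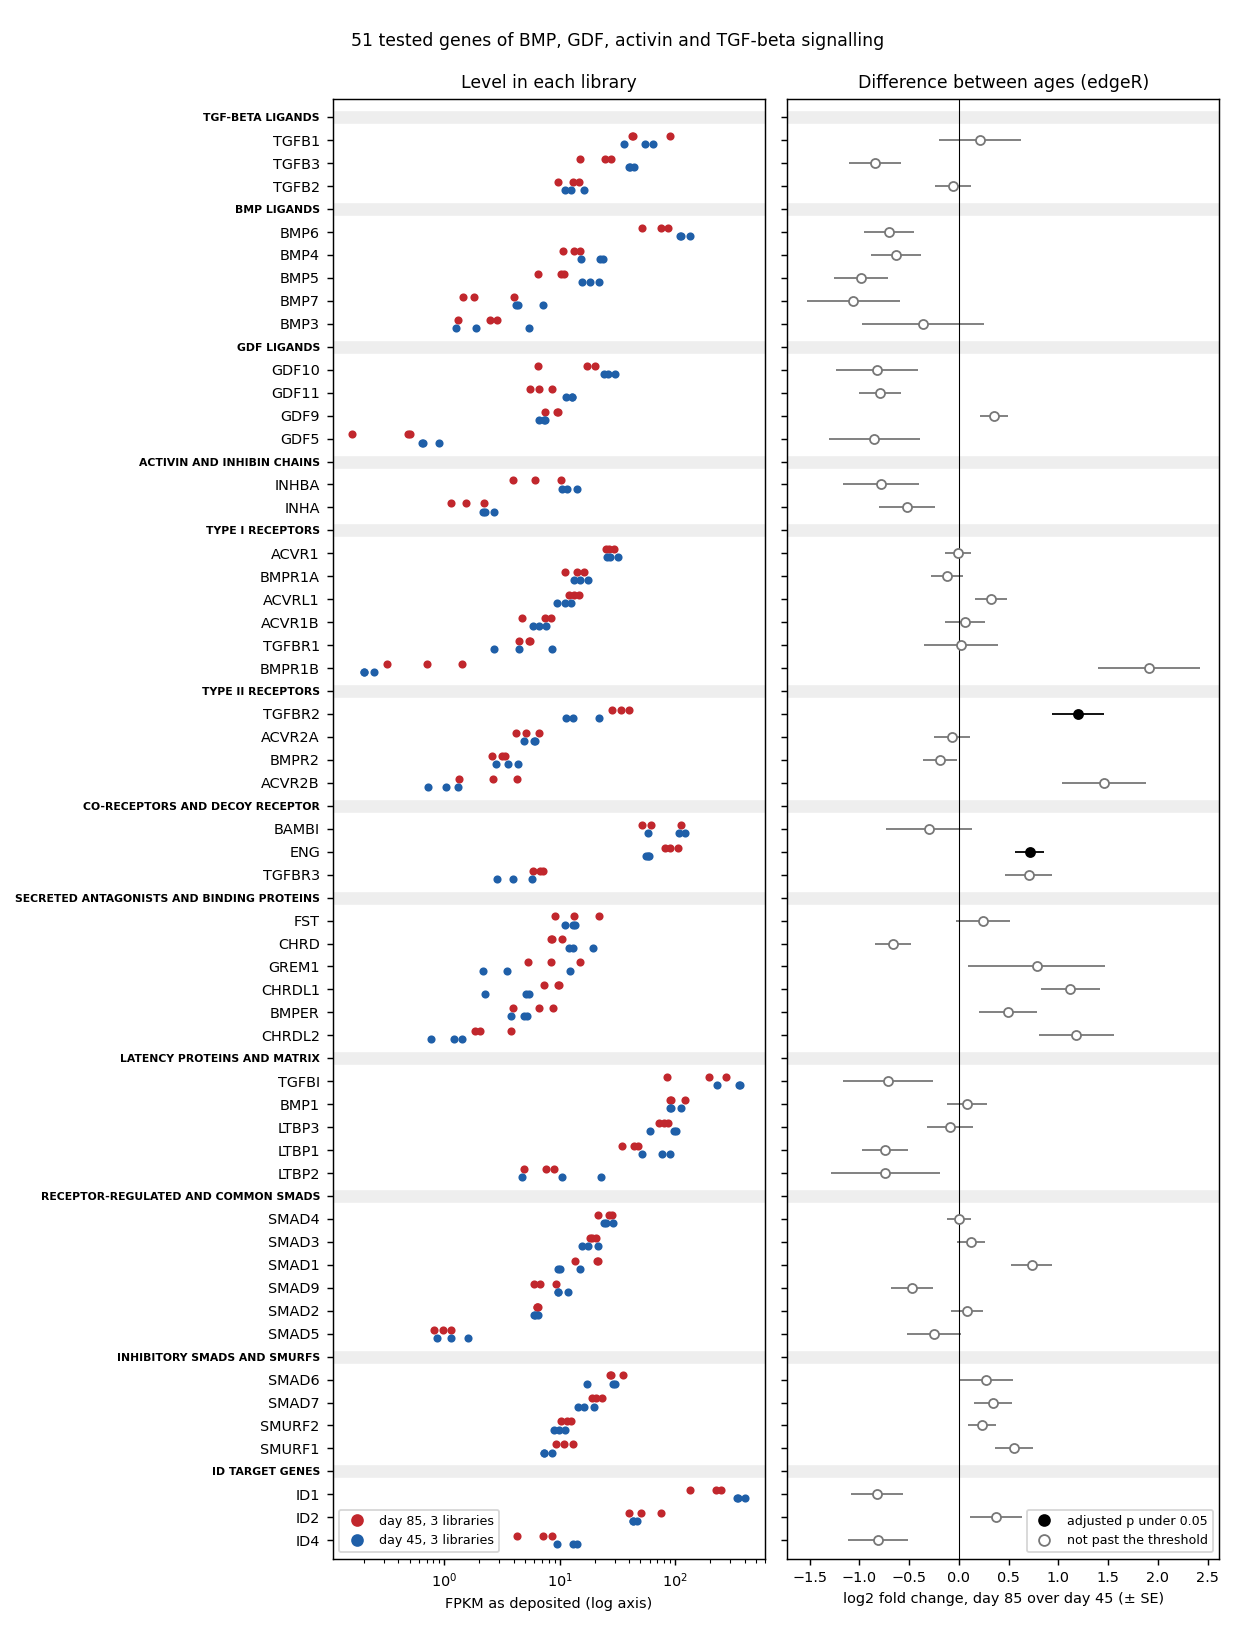
Left, deposited FPKM (log axis) of each tested gene in each library, red for day 85 and blue for day 45. Right, log2 fold change of day 85 over day 45 with its standard error, filled where the adjusted p is under 0.05. ENG and TGFBR2 are the 2 filled points, and 12 of 14 ligands lie left of 0.

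The libraries set limits on every comparison. Total counts ran from 12546729 to 16559616 per library. Day 85 replicate 2 stood apart, with a Spearman's rho across genes of 0.931 and 0.938 to replicates 1 and 3, which correlated at 0.98 with each other. The count of called genes, 586 higher and 400 lower, became 437 higher and 598 lower with library totals alone as the scaling. Without day 85 replicate 2 edgeR called 3412 genes, and without each of the other 5 libraries 0 to 118.

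The labelled tissue was checked by its markers, and lists for cells that may come along with the dissected tissue were summed beside it. The 9 chondrocyte genes summed to 944, 4600 and 1880 CPM in day 85 replicates 1, 2 and 3, against 14700, 13400 and 11500 CPM in day 45 replicates 1, 2 and 3. All 9 were lower at day 85 without overlap, 2 of them called, and none was at 0, and COL2A1, the main cartilage collagen, stood at 28.8, 1070 and 50.6 CPM at 85 days and 5000, 4110 and 3730 CPM at 45 days. Day 85 replicates 1 and 3 thus held little of the collagen that marks the labelled tissue. The 9 endothelial genes summed to 1010 to 1560 CPM at 85 days and 393 to 631 CPM at 45 days, with 5 called higher. Macrophage genes summed to 304 to 849 CPM at 85 days and 98.7 to 180 CPM at 45 days, with 4 of 9 tested called higher. Osteoclast genes summed to 1950 to 14000 CPM at 85 days and 332 to 1350 CPM at 45 days. Skeletal muscle genes summed to 2770 to 40200 CPM at 85 days and 4310 to 9730 CPM at 45 days. Macrophage and osteoclast sums peaked in day 85 replicate 2, where the muscle sum was lowest. Among macrophage genes, CD68 had 77.2, 293 and 75.2 CPM and CSF1R 65.6, 312 and 74.4 CPM in day 85 replicates 1, 2 and 3. MSR1, AIF1 and CD14 also peaked in replicate 2, while C1QA, C1QB, C1QC and MRC1 were highest in replicate 1. C1QC had 98.9, 89.5 and 56.2 CPM. In bulk tissue, fewer cells of a type and less RNA per cell cannot be told apart.

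**Figure D2:**
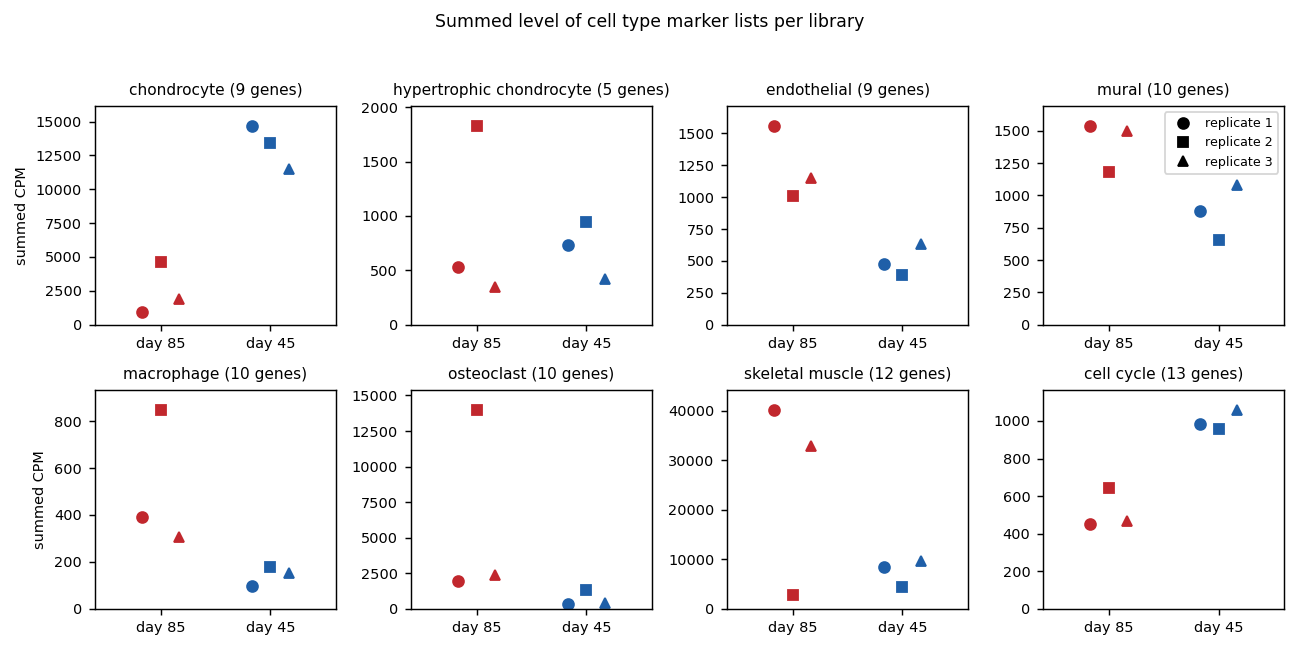
Summed CPM of marker lists in each library, day 85 on the left and day 45 on the right of each panel, symbols marking the replicate. Chondrocyte genes sum to at most 4600 CPM at 85 days and at least 11500 CPM at 45 days, and day 85 replicate 2 lies apart from replicates 1 and 3 in the osteoclast and muscle panels.

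TGFB1, TGFB2 and TGFB3 encode the TGF-beta isoforms, which share receptors. TGFB3 stood at 92.6, 189 and 158 CPM in day 85 replicates 1, 2 and 3, against 256, 291 and 241 CPM in day 45 replicates 1, 2 and 3. Each day 85 library lay below each day 45 library. On the log2 scale it differed by -0.84 (SE 0.26), outside the threshold (adjusted p = 0.0924), and without day 85 replicate 2 it was -1.07 and passed (edgeR adjusted p = 0.0224).

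TGFB1, the isoform stored in bone matrix, had 132, 305 and 134 CPM at 85 days and 178, 211 and 107 CPM at 45 days. The ages overlapped, and day 85 replicate 2 held the highest level of the 6 libraries. On the log2 scale it differed by 0.21, SE 0.41 (adjusted p = 0.764), and it was -0.31 without that library. TGFB2 had 36.8, 29.7 and 42.7 CPM at 85 days and 33.1, 37.1 and 44 CPM at 45 days, which also overlapped (-0.06 on the log2 scale, SE 0.18, adjusted p = 0.837).

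Per length, TGFB1 was the most abundant isoform at day 85, at 58.4 ± 27.5 FPKM, beside 22.6 ± 6.67 FPKM for TGFB3 and 12.4 ± 2.57 FPKM for TGFB2 (SD, n = 3). At day 45 TGFB1 and TGFB3 were closer, at 52 ± 14.4 and 41.8 ± 2.36 FPKM, with TGFB2 at 13.3 ± 2.65 FPKM. TGFB3 made up 21.2%, 21.8% and 30.4% of the FPKM of the isoforms in the day 85 libraries, against 37.5%, 36.6% and 43.9% in the day 45 libraries. Its share was lower in every day 85 library, including replicate 2.

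BMP6, a BMP made by hypertrophic chondrocytes and endothelium, had the highest mean FPKM of the ligands, at 71.2 ± 18.3 FPKM at day 85 and 119 ± 13.6 FPKM at day 45, although TGFB1 exceeded it in day 85 replicate 2. Its counts came to 286, 537 and 435 CPM at 85 days, against 654, 803 and 592 CPM at 45 days. The ages did not overlap, replicate 1 being lowest at day 85. The difference of -0.70 (log2, SE 0.25) stayed outside the threshold (adjusted p = 0.126) and was -0.92 without day 85 replicate 2 (edgeR adjusted p = 0.03). BMP6 made up 72.4% ± 1.72 of the summed BMP ligand FPKM at day 85 and 71.8% ± 2.91 at day 45, so its share differed by less than the spread between libraries.

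BMP5, whose loss gives the short ear phenotype of mice, stood at 7.34, 13.5 and 12.1 CPM at 85 days and 21.7, 26.4 and 17 CPM at 45 days. No library crossed over (-0.98 on the log2 scale, SE 0.27, adjusted p = 0.0745). BMP4, which acts in early skeletal patterning, had 15.4, 21.3 and 22.8 CPM at 85 days and 36.4, 34.3 and 21.5 CPM at 45 days. Here day 45 replicate 3 lay within the day 85 range (-0.63 on the log2 scale, SE 0.25, adjusted p = 0.15). BMP7, a ligand close to BMP6 and BMP5 in sequence, averaged 14.4 ± 8.92 CPM at 85 days and 30 ± 10.8 CPM at 45 days (adjusted p = 0.195), and BMP3, which opposes osteogenic BMPs, 10.2 ± 3.64 and 13.1 ± 10.7 CPM (adjusted p = 0.73). Without day 85 replicate 2, BMP5, BMP6 and BMP7 passed, BMP7 at a log2 fold change of -1.69 (edgeR adjusted p = 0.014).

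Among the GDFs, GDF11, a relative of myostatin that patterns the axial skeleton, stood at 23.7, 40.5 and 29.5 CPM at 85 days and 57.2, 58 and 46.7 CPM at 45 days. The libraries of the ages were apart, and the difference of -0.79 (log2, SE 0.21) stayed outside the threshold (adjusted p = 0.071). GDF10, also called BMP3B, had 15.8, 46.1 and 51 CPM at 85 days and 61.7, 67.7 and 70.8 CPM at 45 days. Replicate 1 was the low library at day 85 (-0.82 on the log2 scale, SE 0.41, adjusted p = 0.235). GDF9, known as an oocyte factor, had 24.1, 20.3 and 24.4 CPM at 85 days and 19.1, 17.6 and 17.3 CPM at 45 days (0.35 on the log2 scale, SE 0.14, adjusted p = 0.149). GDF5, the joint-forming GDF, had 3, 12 and 11 counts at day 85 and 16, 14 and 19 counts at day 45, an average of 0.586 ± 0.309 CPM and 1.08 ± 0.144 CPM (adjusted p = 0.263). Levels this low rest on few counts.

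INHBA, the chain of activin A, stood at 7.27, 20.7 and 11.7 CPM at 85 days and 22.2, 27.5 and 18.4 CPM at 45 days. Day 85 replicate 2 lay within the day 45 range (-0.78 on the log2 scale, SE 0.38, adjusted p = 0.226), and without it the value was -1.25 (edgeR adjusted p = 0.0184). INHA, the inhibin chain, was at 2.86, 1.6 and 2.04 CPM at 85 days and 3, 2.96 and 3.34 CPM at 45 days (-0.52 on the log2 scale, SE 0.28, adjusted p = 0.269). Every day 85 library lay outside the day 45 range, at a level of few counts.

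Members that did not pass the filter were at or near 0 counts. Summed over 3 libraries, GDF7 had 0 counts at day 85 and 7 at day 45, GDF2 had 2 and 0, GDF3 had 0 and 1, and ACVR1C had 0 and 2. BMP10 and BMP15 had 0 counts in all 6 libraries, which allows up to 3 counts of the 88985756 in all, or 0.0337 CPM, counting error only.

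**Figure D3:**
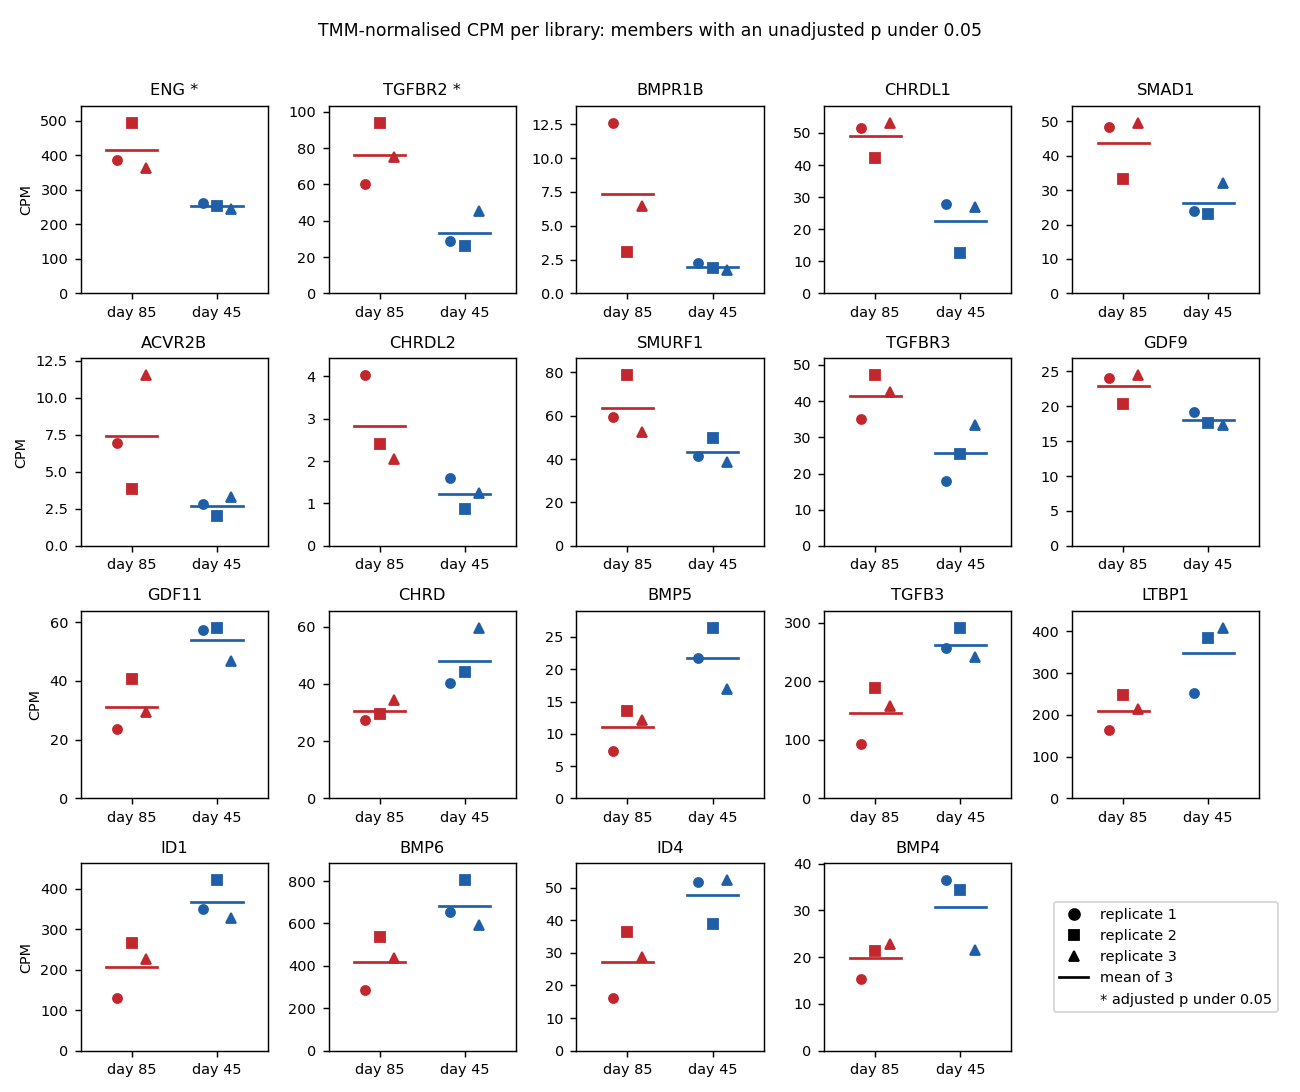
CPM (TMM-normalised, axis from 0) in each library of the 19 genes with an unadjusted p under 0.05, day 85 on the left and day 45 on the right of each panel; horizontal lines are means of 3 libraries and symbols mark the replicate. BMP4 is the 1 panel in which the ages overlap.

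TGFBR2, the receptor that binds TGF-beta first and recruits the type I receptor, rose 2.29-fold at day 85. It stood at 60.1, 93.8 and 75 CPM in day 85 replicates 1, 2 and 3, against 28.8, 26 and 45.1 CPM in day 45 replicates 1, 2 and 3. No library overlapped, replicate 2 being highest at day 85 and replicate 3 at day 45. On the log2 scale this was 1.20, SE 0.26 (edgeR adjusted p = 0.045). Its row lies on chromosome 13 at 18707605 to 18710521 by the table's own coordinates, for which no build is stated in the sources used here. That interval spans 2917 bases, and reads outside it would not enter the count. The rows of ACVR2B, ACVR2A and BMPR2 span 28977, 82745 and 171370 bases, so the TGFBR2 row may hold only part of the gene. The call held without day 85 replicate 2 (log2 fold change 1.02, adjusted p = 0.0356) and was lost without each of the other libraries, where adjusted p ran from 0.0576 to 0.177. It was also lost with upper-quartile factors (adjusted p = 0.0518), library totals (adjusted p = 0.0555) and limma-trend on FPKM with a pseudocount of 1 (adjusted p = 0.0511) or 0.1 (adjusted p = 0.0517).

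TGFBR1, the kinase partner of TGFBR2, did not pass. It had 36.1, 40.1 and 30.4 CPM at 85 days and 18.7, 31.4 and 55 CPM at 45 days, so the day 85 libraries lay inside the wide day 45 range (0.02 on the log2 scale, SE 0.37, adjusted p = 0.979). Per length, TGFBR2 stood at 33.9 ± 5.84 FPKM at day 85 and 15.4 ± 5.72 FPKM at day 45, and TGFBR1 at 5.1 ± 0.606 and 5.25 ± 3.04 FPKM. TGFBR2 made up 75% ± 7.21 of the summed type II receptor FPKM at day 85 and 59.1% ± 5.19 at day 45. Its share was 69.3% to 83.1% at day 85 and 55.4% to 65.1% at day 45, without overlap. The size of these shares depends on the length per gene, 2206 bases for TGFBR2 and 13060 for BMPR2. It also depends on whether the TGFBR2 row covers the whole gene, as does the FPKM of TGFBR2 beside TGFBR1.

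ENG, endoglin, the co-receptor of TGF-beta and BMP9 in endothelium, rose 1.64-fold. Its levels were 385, 493 and 364 CPM at 85 days and 261, 253 and 243 CPM at 45 days. The day 45 libraries lay close together and below all day 85 libraries. On the log2 scale this was 0.71, SE 0.15 (edgeR adjusted p = 0.0431). ENG lies on chromosome 1 at 302232063 to 302266135. The call held without day 85 replicate 2 (log2 fold change 0.57, adjusted p = 0.0166) and under the other scalings, and was lost without each of the other libraries, with adjusted p from 0.0814 to 0.161.

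ACVRL1, the type I receptor that works with endoglin in endothelium, had 84.7, 112 and 97 CPM at 85 days and 69, 92.3 and 74.8 CPM at 45 days. The ages overlapped through day 45 replicate 2 (0.32 on the log2 scale, SE 0.16, adjusted p = 0.245). The summed endothelial genes were 1560, 1010 and 1150 CPM in day 85 replicates 1, 2 and 3, lowest in replicate 2, where ENG, TGFBR2 and ACVRL1 were highest. In day 45 replicates 1, 2 and 3 they summed to 476, 393 and 631 CPM, an order that TGFBR2 shared and ENG and ACVRL1 did not. The macrophage sum was 392, 849 and 304 CPM in day 85 replicates 1, 2 and 3. Its peak in replicate 2 was not shared by C1QA, C1QB, C1QC and MRC1. The 10 mural genes, of pericytes and smooth muscle, summed to 1540, 1180 and 1500 CPM at 85 days, against 880, 655 and 1080 CPM at 45 days, with 2 called higher, and were lowest in replicate 2 at both ages. The 8 Schwann genes summed to 260, 2710 and 250 CPM at 85 days, against 316, 168 and 210 CPM at 45 days, and stood out in day 85 replicate 2. The part of these cell types in the rise of ENG and TGFBR2 was not tested.

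ACVR2B, a receptor of activins and BMPs, had 6.96, 3.87 and 11.5 CPM at 85 days and 2.82, 2.02 and 3.27 CPM at 45 days. Libraries separated by age (1.46 on the log2 scale, SE 0.42, adjusted p = 0.0833), and it passed without day 85 replicate 2 (log2 fold change 1.77, edgeR adjusted p = 0.0114). ACVR2A, its close relative, had 16.7, 11.5 and 13.5 CPM at 85 days and 15.7, 13.1 and 14.9 CPM at 45 days (-0.07 on the log2 scale, SE 0.18, adjusted p = 0.831). BMPR2, the BMP type II receptor, had 40.3, 36.3 and 44.3 CPM at 85 days and 37, 48.5 and 52.7 CPM at 45 days (-0.19 on the log2 scale, SE 0.17, adjusted p = 0.471). Both overlapped between ages.

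Among type I receptors, BMPR1B, a BMP receptor of early cartilage, had 12.6, 3.07 and 6.46 CPM at 85 days and 2.27, 1.88 and 1.7 CPM at 45 days. Day 85 and day 45 libraries did not overlap, but replicate 2 at day 85 lay near the day 45 libraries. The difference of 1.91 (log2, SE 0.51) stayed outside the threshold (adjusted p = 0.0697), and it was 2.28 without that library (edgeR adjusted p = 0.00641). The BMPR1B row overlaps the row of UNC5C and an unnamed row, and the strand setting of the counting is not given, so its counts are uncertain.

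ACVR1 and BMPR1A are BMP type I receptors with broad expression. ACVR1 had the highest FPKM of the type I receptors, 27.1 ± 2.28 at day 85 and 28.1 ± 3.29 at day 45. This rank rests on the length per gene, 1568 bases for ACVR1 and 7210 for ACVRL1, whose CPM was higher in every library. ACVR1 stood at 37.9, 45.1 and 46.5 CPM at 85 days and 40.5, 43.8 and 46.4 CPM at 45 days (-0.01 on the log2 scale, SE 0.13, adjusted p = 0.959). BMPR1A stood at 45, 38.7 and 53.5 CPM at 85 days and 44.4, 50.4 and 53.8 CPM at 45 days (-0.12 on the log2 scale, SE 0.16, adjusted p = 0.648). The libraries of the ages were interleaved in both. ACVR1B, the activin type I receptor, averaged 31.3 ± 7.94 CPM at 85 days and 30 ± 2.09 CPM at 45 days (adjusted p = 0.868).

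Of the remaining co-receptors, TGFBR3, betaglycan, which presents TGFB2 to its receptors, had 35, 47.1 and 42.5 CPM at 85 days and 18, 25.5 and 33.5 CPM at 45 days. The ages did not overlap (0.70 on the log2 scale, SE 0.24, adjusted p = 0.12). BAMBI, a decoy receptor without a kinase domain, had 149, 360 and 184 CPM at 85 days and 366, 330 and 160 CPM at 45 days. Replicate 2 at day 85 and replicate 3 at day 45 each lay with the libraries of the other age (-0.30 on the log2 scale, SE 0.43, adjusted p = 0.674).

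**Figure D4:**
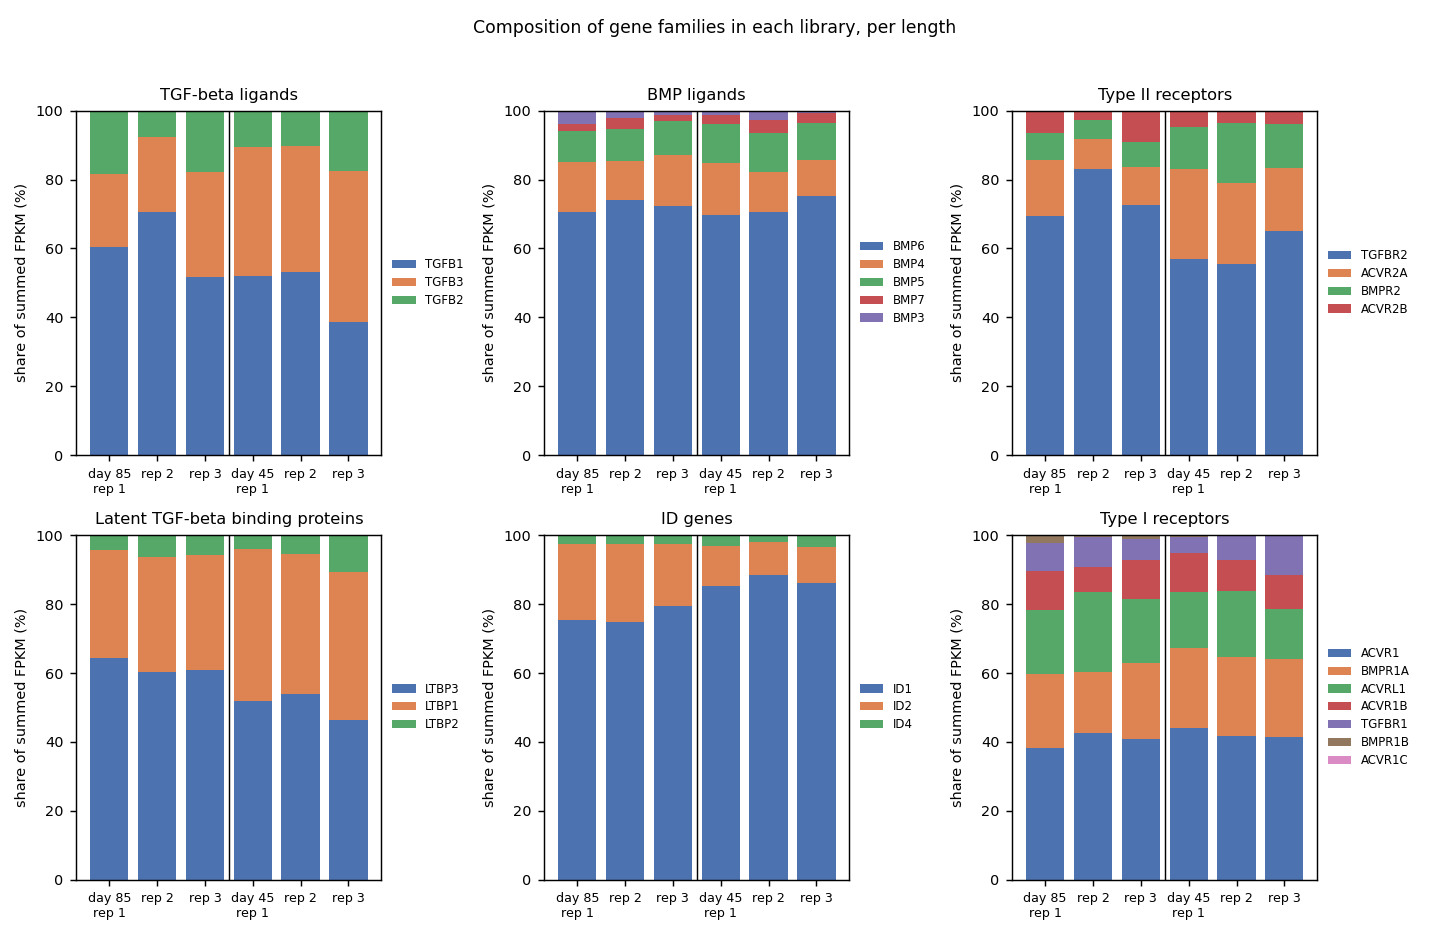
Share of the summed FPKM of a gene family held by each member, 1 bar per library, day 85 left of the line and day 45 right of it. The share of TGFB3 is 21.2% to 30.4% at day 85 and 36.6% to 43.9% at day 45, and TGFBR2 holds 69.3% to 83.1% of the type II receptors at day 85 and 55.4% to 65.1% at day 45.

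Of 6 secreted antagonists and binding proteins tested, 5 had a positive log2 value, 1 a negative one, and none was called in edgeR. An unadjusted edgeR p under 0.05 was reached by 2 upward and 1 downward, where 29.1% of all genes reached it. DESeq2 called CHRDL1, CHRDL2 and CHRD, where it called 22.7% of all genes. With 6 genes, nothing is read from these counts. CHRD, chordin, stood at 27.5, 29.6 and 34.4 CPM at 85 days and 40.3, 44.3 and 59.6 CPM at 45 days. No library crossed over (-0.66 on the log2 scale, SE 0.18, adjusted p = 0.0742). CHRDL1, chordin-like 1, stood at 51.6, 42.1 and 53.1 CPM at 85 days and 28, 12.6 and 27 CPM at 45 days. It lay higher in every day 85 library (1.12 on the log2 scale, SE 0.30, adjusted p = 0.0733). CHRDL2, a chordin relative, had 4.02, 2.4 and 2.04 CPM at 85 days and 1.59, 0.866 and 1.24 CPM at 45 days, again without overlap (1.18 on the log2 scale, SE 0.38, adjusted p = 0.103).

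FST, follistatin, which binds activins, had 37, 17.3 and 23.8 CPM at 85 days and 23.3, 20.3 and 22.2 CPM at 45 days (0.24 on the log2 scale, SE 0.27, adjusted p = 0.579). Its day 85 libraries lay on both sides of the day 45 range. GREM1, gremlin, had 2.86, 8.93 and 4.68 CPM at 85 days and 1.22, 2.02 and 6.35 CPM at 45 days (0.78 on the log2 scale, SE 0.69, adjusted p = 0.485), and its row spans 555 bases. BMPER, which binds BMPs at endothelium, averaged 26.2 ± 8.71 CPM at 85 days and 18.6 ± 3.89 CPM at 45 days (adjusted p = 0.293) and passed without day 85 replicate 2 (log2 fold change 0.73, edgeR adjusted p = 0.046).

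Latency and matrix proteins were among the most abundant products of the family. TGFBI, a matrix protein named for its induction by TGF-beta, had 156, 559 and 375 CPM at 85 days and 441, 698 and 648 CPM at 45 days. Day 85 replicate 2 lay within the day 45 range (-0.71 on the log2 scale, SE 0.45, adjusted p = 0.338). LTBP1, which tethers latent TGF-beta to fibrillin, had 164, 248 and 215 CPM at 85 days and 253, 384 and 408 CPM at 45 days. The libraries of the ages were apart (-0.74 on the log2 scale, SE 0.23, adjusted p = 0.0988), and it passed without day 85 replicate 2 (log2 fold change -0.88, edgeR adjusted p = 0.0423).

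LTBP3, which carries latent TGF-beta in skeletal tissue, had 504, 666 and 583 CPM at 85 days and 441, 762 and 660 CPM at 45 days (-0.09 on the log2 scale, SE 0.23, adjusted p = 0.821). The strand setting of the counting is not given, so its counts are uncertain. LTBP2, which does not bind latent TGF-beta, averaged 40.1 ± 13.3 CPM at 85 days and 66.7 ± 44.8 CPM at 45 days (adjusted p = 0.411). Of the summed FPKM of LTBP1, LTBP2 and LTBP3, LTBP1 held 32.6% ± 1.28 at day 85 and 42.5% ± 1.88 at day 45. BMP1, which despite its name is a protease that trims procollagens and cleaves chordin, had 320, 478 and 343 CPM at 85 days and 336, 429 and 315 CPM at 45 days (0.08 on the log2 scale, SE 0.20, adjusted p = 0.819). The ages overlapped.

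Most SMADs stood at close levels at both ages. SMAD4, the common partner, had 95.5, 80.1 and 94 CPM at 85 days and 85.3, 91.4 and 93.5 CPM at 45 days, 0.00 on the log2 scale, with an SE of 0.12 (adjusted p = 0.989). SMAD3, an effector of TGF-beta, had 102, 127 and 112 CPM at 85 days and 105, 93.4 and 116 CPM at 45 days (0.12 on the log2 scale, SE 0.14, adjusted p = 0.591). SMAD2, the other TGF-beta effector, averaged 9.59 ± 0.44 CPM at 85 days and 9.05 ± 0.794 CPM at 45 days (adjusted p = 0.754). These differences were within about 1 SE.

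The BMP effectors had log2 values of both signs, none called. SMAD1 stood at 48.3, 33.3 and 49.5 CPM at 85 days and 23.8, 23.1 and 32 CPM at 45 days. Every day 85 library lay outside the day 45 range, although day 85 replicate 2 lay close to day 45 replicate 3. The difference of 0.73 (log2, SE 0.21) stayed outside the threshold (adjusted p = 0.0785) and was 0.89 without that day 85 library (edgeR adjusted p = 0.0148). SMAD9 averaged 39.5 ± 9.32 CPM at 85 days and 54.6 ± 8.86 CPM at 45 days (-0.47 on the log2 scale, SE 0.21, adjusted p = 0.188), and SMAD5 10.6 ± 2.21 and 12.6 ± 4.01 CPM (adjusted p = 0.572).

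Feedback inhibitors had positive log2 fold changes in all 4 tested genes and no call in edgeR. SMAD6, an inhibitor of BMP signalling, had 54.4, 76.6 and 56 CPM at 85 days and 59.5, 63 and 32.6 CPM at 45 days (0.27 on the log2 scale, SE 0.27, adjusted p = 0.541). SMAD7, which blocks TGF-beta and BMP receptors, had 61.5, 76 and 58.8 CPM at 85 days and 50.2, 63.1 and 41.4 CPM at 45 days (0.34 on the log2 scale, SE 0.19, adjusted p = 0.269). Both overlapped between ages.

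Of the SMURF ubiquitin ligases, which mark SMADs and receptors for degradation, SMURF1 averaged 63.5 ± 13.4 CPM at 85 days and 43.3 ± 5.92 CPM at 45 days without overlap (0.55 on the log2 scale, SE 0.19, adjusted p = 0.111). SMURF2 had 48.8, 49.9 and 41.9 CPM at 85 days and 36.7, 46.4 and 37 CPM at 45 days, with overlap (0.23 on the log2 scale, SE 0.14, adjusted p = 0.333).

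ID genes encode helix-loop-helix proteins without a DNA-binding domain and are direct BMP targets. ID1 had the highest mean FPKM of the family, 202 ± 59.7 at day 85 and 367 ± 33.7 at day 45, next to TGFBI at 186 ± 96.1 and 318 ± 76.7, from which it did not differ beyond the spread. Its levels were 131, 265 and 226 CPM in the day 85 libraries and 349, 420 and 328 CPM in the day 45 libraries. Libraries separated by age, and the difference of -0.82 (log2, SE 0.26) stayed outside the threshold (adjusted p = 0.104). ID4 had 16.2, 36.4 and 28.6 CPM at 85 days and 51.8, 38.9 and 52.2 CPM at 45 days, also without overlap (-0.81 on the log2 scale, SE 0.30, adjusted p = 0.132).

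ID2 had a positive log2 value that was not called. It had 55, 114 and 71.9 CPM at 85 days and 66.8, 63 and 57.2 CPM at 45 days, with overlap (0.37 on the log2 scale, SE 0.26, adjusted p = 0.384), and without day 85 replicate 2 its value was 0.03. ID1 made up 76.5% ± 2.67 of the FPKM of the 3 ID genes at day 85 and 86.6% ± 1.73 at day 45, and ID2 21% ± 2.7 and 10.5% ± 1.08. Without day 85 replicate 2, ID1 and ID4 passed (log2 fold change -1.03 and -1.09, edgeR adjusted p = 0.0297 and 0.0347).

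In the day 85 libraries, ID1, TGFB3, BMP6 and TGFBI shared an order, lowest in replicate 1, then replicate 3, then replicate 2, and the summed chondrocyte, osteoclast, osteoblast, fibroblast and tendon, and cell cycle genes had the same order. Of the 11 members lower at day 85 without overlap, 8 had it, or 72.7%, against 34.2% of the 2651 such genes among all tested. Of the sums with this order, those of chondrocyte and cell cycle genes were lower in every day 85 library. The osteoclast sum was higher in every day 85 library, and the osteoblast and the fibroblast and tendon sums overlapped between ages. Hypertrophic chondrocyte genes summed to 532, 1830 and 349 CPM in day 85 replicates 1, 2 and 3, another order. The part of these cell types in the lower ligand and ID levels was not tested.

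Leaving out day 85 replicate 2 raised the family's calls to 6 higher and 9 lower of 51, or 29.4%, where 22.3% of all genes were called. The 6 higher were TGFBR2, ENG, ACVR2B, BMPR1B, BMPER and SMAD1. The 9 lower were BMP5, BMP6, BMP7, GDF11, INHBA, TGFB3, LTBP1, ID1 and ID4. Replicates 1 and 3, then left at day 85, had chondrocyte sums of 944 and 1880 CPM, against 4600 CPM in replicate 2. Their muscle sums were 40200 and 32900 CPM, against 2770 CPM in replicate 2 and 4310 to 9730 CPM at 45 days. The part of this tissue difference in the added calls was not tested. Without each of the other 5 libraries in turn, edgeR called 0 members, while 6 to 10 were higher and 5 to 10 lower at an unadjusted p under 0.05. Over all genes, 2916 to 3855 of 15215 to 15389 tested had such a p in these fits. The member counts were not tested against this background.

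**Figure D5:**
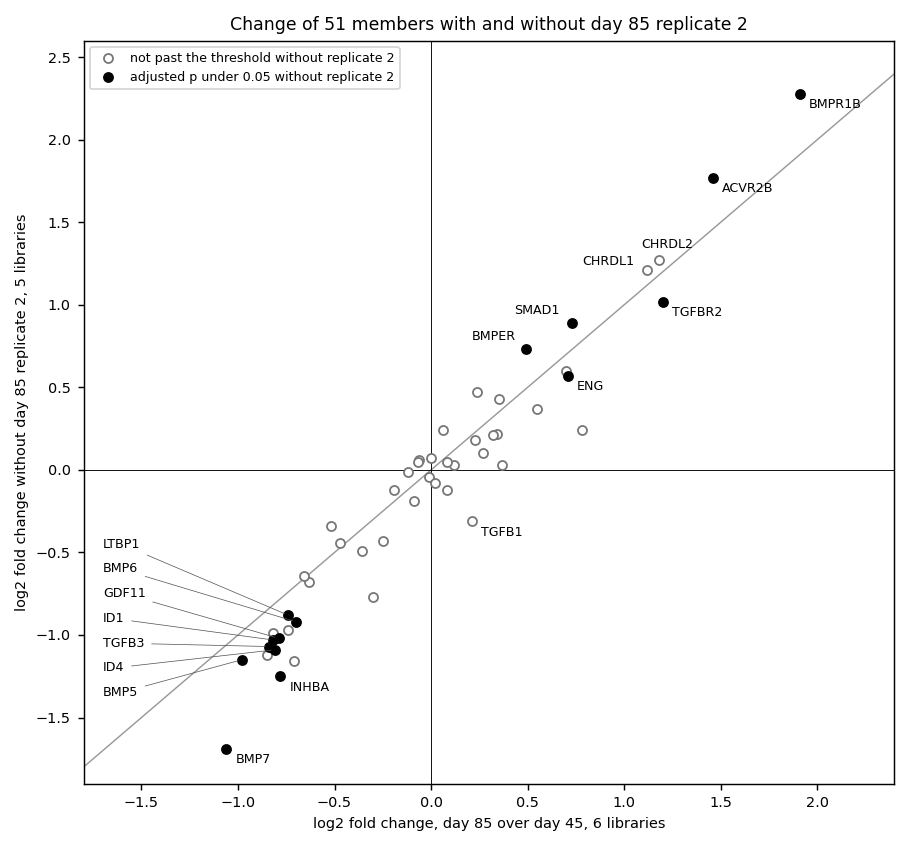
Log2 fold change of the 51 tested members with all 6 libraries (x axis) and without day 85 replicate 2 (y axis), filled where the adjusted p without that library is under 0.05; the diagonal marks equal values. Of the 15 filled points, 6 lie above 0 and 9 below, and TGFB1 changes sign, 0.21 with and -0.31 without the library.

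Other genes of the pathway were read from lists of extracellular control, further ligands and receptors, intracellular control and target genes. Of 65 tested, 4 rose and 1 fell, or 7.69%, against 6.56% of all genes, which is near the background and is no result about the lists. The median log2 fold change was 0.06. Of the extracellular genes, LRRC32 and NRROS, transmembrane proteins that hold latent TGF-beta on the cell surface, both rose. LRRC32 stood at 34.9, 40.7 and 29.9 CPM at 85 days and 13.6, 7.36 and 17.3 CPM at 45 days (1.46 on the log2 scale, SE 0.31, edgeR adjusted p = 0.0444). NRROS, the anchor of macrophages and microglia, stood at 13.3, 17 and 10.6 CPM at 85 days and 6.06, 4.33 and 6.41 CPM at 45 days (1.28 on the log2 scale, SE 0.25, edgeR adjusted p = 0.0378). No library of either gene overlapped between ages. The macrophage sum was also higher in every day 85 library, and its part in NRROS was not tested.

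SOST, sclerostin, an osteocyte protein of the DAN family that is best known as a Wnt inhibitor, was the 1 gene of these lists that fell, to 13.1 ± 3.12 CPM at day 85, against 66.7 ± 13 CPM at 45 days (-2.34 on the log2 scale, SE 0.23, edgeR adjusted p = 0.016). DMP1, another gene of osteocytes, averaged 1040 ± 760 CPM at 85 days and 402 ± 299 CPM at 45 days. It was not called (1.37 on the log2 scale, SE 0.76, edgeR adjusted p = 0.282). The part of osteocytes in the fall of SOST was not tested. TRAF6, a ubiquitin ligase that links TGF-beta receptors to TAK1, rose 1.82-fold (edgeR adjusted p = 0.0379). GATA2, a factor of blood and endothelial cells, rose 2.53-fold (edgeR adjusted p = 0.0462), beside the higher endothelial sum, whose part was not tested. All 5 calls held without day 85 replicate 2 (edgeR adjusted p at most 0.0375). Without each of the other libraries, LRRC32, NRROS, TRAF6 and GATA2 lost the call (0.0618 to 0.166), and SOST kept it without day 85 replicate 3 and without day 45 replicate 3 and otherwise reached up to 0.102. Of 27 extracellular genes 2 rose and 1 fell, of 21 intracellular genes 1 rose, and of 15 targets 1 rose. These are 11.1%, 4.76% and 6.67% of the lists, and nothing is read from their differences. The 2 tested genes among further ligands and receptors stayed outside the threshold.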

How the data were processed

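The deposited table holds, per the file headers, read counts per gene and FPKM for 6 condyle libraries. Per the submitters' processing notes, HISAT2 was used, version not stated. The sources used here give neither the counting program nor its strand setting, build or annotation. Deposited FPKM equalled the count over the library total times a factor per gene for 10748 genes with at least 50 counts, with a largest relative deviation of 0.0012%, so the authors applied no further scaling between libraries.

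The main test was the quasi-likelihood test of edgeR 4.0.16, run in R 4.3.3 on the deposited counts (filterByExpr with minimum count 10, TMM, robust quasi-likelihood fit, age as the factor, Benjamini-Hochberg threshold 0.05). The SE is the log2 fold change divided by the square root of F. The fit was tested on simulated data. Alternatives used DESeq2 1.42.0, limma 3.58.1, other scalings and filters, a replicate block and leaving out each library. The lowest chi-square per degree of freedom between any pair of libraries was 21.5, so none was a duplicate.

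Members and lists were chosen with earlier results of these data known. Values per library were given for called members, the 3 highest in FPKM of each role, TGFBR2, and members with a log2 fold change of at least 1 in size, an unadjusted p under 0.05 and at least 1 CPM. LTBP1, BMP7, TGFBR1 and other members outside this rule were named after their values were seen. Sequences were not used here, and some items are not reported here.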

Additional observations from a re-analysis of the deposited data

How the results depend on the processing

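Over all genes, 986 calls became 3816 with DESeq2 and 0 to 3412 when a library was left out, the 0 in edgeR being without day 45 replicate 2, where 3056 genes had an unadjusted p under 0.05. Of the members, 2 were called higher. This count became 9 with DESeq2, 1 with upper-quartile factors, 1 with library totals, 1 with limma-trend on log2(FPKM + 1) and 1 with log2(FPKM + 0.1), 0 with the replicate block, and 0 to 6 when a library was left out. The count called lower, 0 in edgeR, became 10 with DESeq2, 1 with library totals and with log2(FPKM + 1), where GDF11 passed, and 0 to 9 when a library was left out. RLE factors, limma-voom, dropping the filter and requiring 1 CPM in 3 libraries left both counts as they were. Summing rows of 1 name was not run, since each name had 1 row.

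Same-numbered libraries correlated at 0.0128, 0.25 and 0.0404 in their deviations from the age means, and differently numbered ones at -0.273 to 0.261. Deviations from a mean of 3 libraries are tied to each other, so these values cannot decide whether the numbers pair the libraries. With the replicate block 682 genes were called, and TGFBR2 and ENG had adjusted p = 0.0582 and 0.0596 in edgeR.

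Over the 51 tested members, another scaling, filter, tool or block changed the sign of 2, both uncalled. TGFBR1, at 0.02, was -0.02 with upper-quartile factors, -0.04 with library totals and -0.01 without the filter, and ACVR1B, at 0.06, was 0.00 to 2 decimals, just below 0, with log2(FPKM + 0.1). Leaving out a library turned the sign of 12 uncalled members, whose log2 fold changes then ran from -0.08 to 0.05 for ACVR1, -0.11 to 0.24 for ACVR1B, -0.24 to 0.05 for ACVR2A, -0.12 to 0.22 for BMP1, -0.74 to 0.54 for BMP3, -0.11 to 0.47 for FST, -0.30 to 0.08 for LTBP3, -0.07 to 0.07 for SMAD4, -0.43 to 0.02 for SMAD5, -0.31 to 0.42 for TGFB1, -0.19 to 0.06 for TGFB2 and -0.30 to 0.50 for TGFBR1. The cause was not tested. Each age has 3 libraries, and GDF5 rests on at most 19 counts in a library.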
